A study of Mus musculus with 24 samples.

Results

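Among 24 tibialis anterior muscles profiled on Clariom S mouse arrays, 4 arrays carried a high value of Alb (12.81 or more on the log2 scale, on which 1 unit is a 2-fold difference) and 12 arrays carried a low value (below 8). Alb encodes serum albumin, the main protein that the liver secretes into blood. The arrays were selected on the only Alb probe set of the array, so the contrast between the sets is given as a description, without a test. The upper threshold lay between 12.23 and 12.81, and the 8 arrays between the thresholds entered neither set. The muscles came from 12 mice heterozygous for a disrupted Vps39 allele (Vps39+/-) and 12 wild-type (WT) mice, with 6 mice for each genotype and sex. All mice were about 4 months old and on a C57BL/6J background. The labels name no treatment, and whether the mice of the arrays were fasted or given oral glucose, as in other experiments of the study, was not stated. In the Vps39+/- mice, exon 2 of Vps39 is interrupted in the germ line by a neomycin-EGFP cassette, so the allele is carried in every tissue and is not limited to muscle, and homozygous embryos do not survive. The 4 high-Alb arrays were from Vps39+/- males 2 and 3 and WT females 2 and 6, so sex and genotype cannot be told apart inside that set. The 12 low-Alb arrays were from 3 Vps39+/- males, 2 Vps39+/- females, 5 WT males and 2 WT females. The 8 arrays in between were from 1 Vps39+/- male, 4 Vps39+/- females, 1 WT male and 2 WT females.

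Hepatocytes, the main cells of the liver, make most plasma proteins, including albumin, the fibrinogen chains, transthyretin and the alpha-1-antitrypsin family, and are equipped with enzymes for the urea cycle, gluconeogenesis and drug metabolism. In mice, part of this programme differs by sex, with several cytochrome P450 genes being expressed in female liver and several major urinary protein (Mup) genes being stronger in male liver. Acinar cells of the pancreas express another abundant set of secretory genes, the digestive proenzymes. Tibialis anterior, by contrast, is a fast hindlimb muscle whose RNA is dominated by sarcomere, calcium-handling and glycolytic transcripts.

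All arrays had the profile of fast muscle, whatever their Alb value. Acta1, skeletal muscle actin, was between 13.61 and 13.82 in the high-Alb arrays and between 13.69 and 13.81 in the low-Alb arrays. Myh4, the myosin of the fastest fibres, was between 13.50 and 13.61 in the high-Alb arrays and between 13.51 and 13.61 in the low-Alb arrays. Both genes lie near the brightest value of an array (13.74 in WT female 2 and 13.83 in WT male 4), where the scaling leaves little room for a difference to show. Array medians were between 5.55 and 5.64, and the lowest correlation of any pair of arrays across genes was r = 0.935.

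Alb was 13.36 and 12.81 in Vps39+/- males 3 and 2 and 13.56 and 13.26 in WT females 2 and 6, whereas its median over the low-Alb arrays was 6.68 (lowest 5.38, highest 7.62). These are the values the selection used. The array just inside the upper threshold was Vps39+/- male 2 (12.81) and the array just outside was WT female 3 (12.23). At the lower threshold, WT female 5 (7.62) was just inside and Vps39+/- male 6 (8.09) just outside. In WT female 2, Alb had rank 4 among all genes of the array, and it had ranks 9, 27 and 10 in Vps39+/- male 3, Vps39+/- male 2 and WT female 6. In WT male 4, the array with the lowest value, it had rank 10332. Ranks on an array depend on probe brightness as well as on abundance.

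The other liver markers followed. Fgg, the gamma chain of fibrinogen, was 10.67 and 9.93 in Vps39+/- males 3 and 2 and 12.45 and 11.30 in WT females 2 and 6, and its low-Alb median was 4.22 (3.16 to 4.94). Ttr, the thyroxine and retinol carrier transthyretin, was 11.20 and 10.34 in the same males and 12.14 and 11.21 in the same females, and its low-Alb median was 5.03 (4.03 to 5.56). Serpina1c, an alpha-1-antitrypsin gene with near-identical copies that the probes may not separate, was 10.83 and 10.30 in the males and 11.77 and 10.94 in the females, and its low-Alb median was 4.2 (3.63 to 4.76). Fgg, Ttr and Serpina1c did not overlap between the sets, beside 405 of 19572 named probe sets (2.07%) that were above the low-Alb arrays without overlap. WT female 2 was the highest array for each of the 4 markers. Alb had a range of 0.755 within the high-Alb set, less than that of Serpina1c (1.461), Ttr (1.80) or Fgg (2.52). In the homogenised muscle, more cells of a type and more RNA per cell cannot be told apart. A value of about 3 to 5 is near the dim end of the array, and the files give no detection call.

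**Figure D1:**
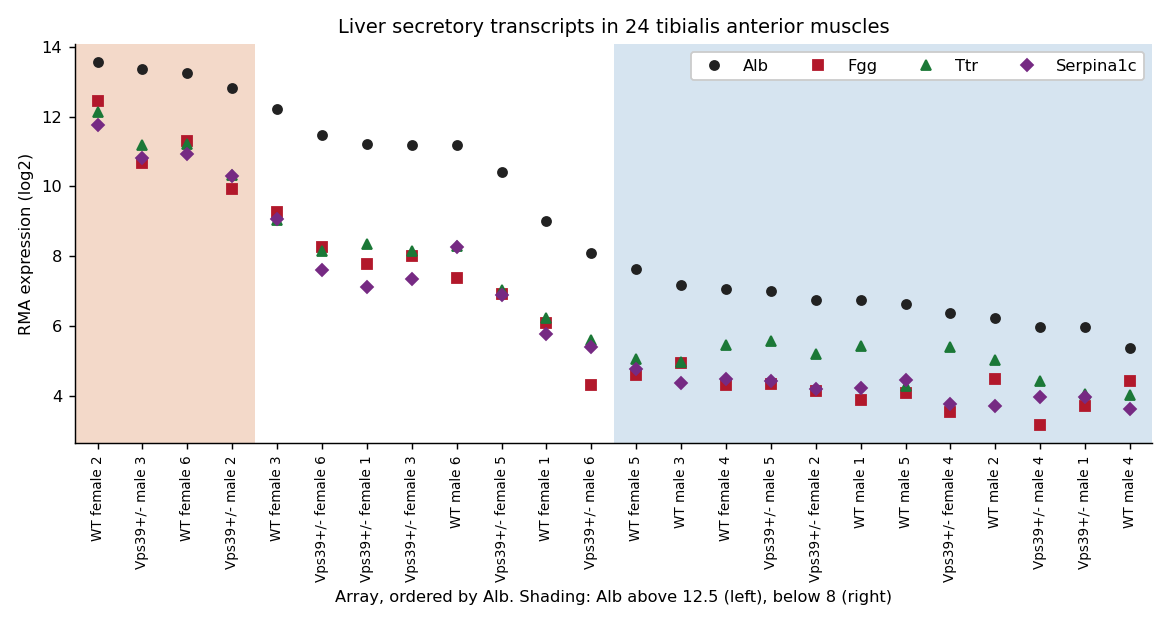
RMA expression (log2) of Alb, Fgg, Ttr and Serpina1c in each of the 24 muscles, ordered by Alb, with the 4 high-Alb arrays shaded on the left and the 12 low-Alb arrays shaded on the right. The markers are lower towards the right, with Fgg at 12.45 in WT female 2 and 4.31 in Vps39+/- male 6, and in the low-Alb arrays Fgg is at most 4.94 and Serpina1c at most 4.76, with Alb between 5.38 and 7.62.

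The promoters of Alb and Serpina1c are shown because these genes stand for the transcripts that came together and because hepatocyte promoters carry recognisable sites for liver transcription factors. The stretches are the 250 bases before the RefSeq start in GRCm38.p6, at chr5:90460620-90460869 on the plus strand for Alb and chr12:103904951-103905200 on the minus strand for Serpina1c. Capitals mark the letters GTTAAT or its reverse complement ATTAAC, the core of a site for the hepatocyte factor HNF1, and CCAAT or its reverse complement ATTGG. In Serpina1c, ATTGG and GTTAAT overlap in the run ATTGGTTAAT.
Alb: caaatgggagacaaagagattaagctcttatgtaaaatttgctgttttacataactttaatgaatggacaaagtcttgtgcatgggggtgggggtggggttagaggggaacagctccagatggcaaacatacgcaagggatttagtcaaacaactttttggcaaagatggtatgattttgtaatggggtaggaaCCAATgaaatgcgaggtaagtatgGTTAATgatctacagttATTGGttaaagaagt
Serpina1c: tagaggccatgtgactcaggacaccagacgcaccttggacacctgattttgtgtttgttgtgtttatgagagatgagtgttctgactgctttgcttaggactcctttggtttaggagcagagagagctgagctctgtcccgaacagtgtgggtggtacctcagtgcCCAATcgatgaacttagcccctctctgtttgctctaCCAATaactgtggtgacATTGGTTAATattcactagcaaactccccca
Each stretch held GTTAAT, and TATAAA or TTTATA, which was also searched, was found in neither. Over all 32851 RefSeq promoters of the same length, 6.4% held the HNF1 letters on either strand, 33.8% the CCAAT letters and 12.4% the TATAAA letters. Over the 295 promoters of the 250 genes that were higher in the high-Alb arrays and had an entry, the shares were 19.3%, 38% and 20.7%. A match of letters is a description and not evidence that a factor was bound.

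To see which transcripts came along, a gene was called where the medians of the sets differed by at least 1 log2 and no array of one set overlapped with the other. Of 19572 named probe sets, 312 (1.59%), from 308 genes, were called higher in the high-Alb arrays and 0 (0%) were called lower. The selection used this contrast, so the counts describe the arrays and are not a test. The median difference over all probe sets was -0.06. Of the 312, 176 were higher by at least 2 log2 and 68 by at least 4 log2, and 208 had a low-Alb median under 5. Only 7 had a low-Alb median of 8 or more, that is, a clear level in the muscles with little Alb. These 7 were Apoe, the lipoprotein ligand, Vtn (vitronectin), Adh1 (alcohol dehydrogenase), Clu (clusterin), Selenop (the selenium carrier), Sc5d, a sterol desaturase, and Gpx1 (glutathione peroxidase), named here after their values were seen. Selenop, for instance, was between 11.06 and 12.43 in the high-Alb arrays and between 10.20 and 10.67 in the low-Alb arrays.

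**Figure D2:**
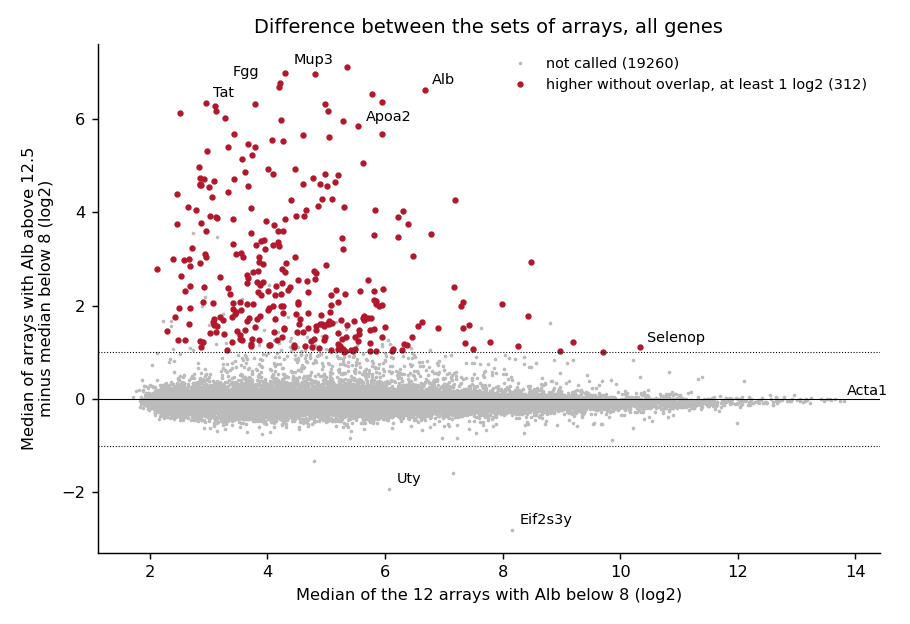
Difference of medians, high-Alb arrays minus low-Alb arrays (log2), against the median of the 12 low-Alb arrays (log2), for 19572 probe sets. The 312 probe sets called higher (red) lie mostly at the dim end and reach 7.11, no probe set was called lower, and Eif2s3y (-2.8), a Y-linked gene, follows the number of males in each set.

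The 10 largest differences belonged to genes that hepatocytes secrete or use. They were Mup19 (7.11), Mup3 (6.99), Mup9 (6.97), Mup22 (6.53) and Mup2 (6.37), whose products carry pheromones in urine, then Fgg (6.77), Serpina1c (6.69), Alb (6.63), Serpina1a (6.33) and Tat (6.35), the tyrosine aminotransferase. Mup19 was 10.21 and 12.79 in Vps39+/- males 3 and 2 and 13.12 and 12.14 in WT females 2 and 6, and its low-Alb median was 5.36 (4.60 to 7.23). Thus the order of the arrays by Mup19 was not that by Alb, since Vps39+/- male 3 came last among the high-Alb arrays. Mup genes are near-identical, and their probe sets may share signal. Tat was 9.26 and 8.00 in the males and 10.14 and 9.34 in the females, against a low-Alb median of 2.95 (2.6 to 3.58).

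Transcripts of plasma proteins were the most complete group. Of 47 measured genes in this list, 44 were called higher, beside 1.59% of all probe sets, with a median difference of 4.05. The remaining 3, coagulation factor F10 and the complement genes C8a and C8g, missed the call by size, with differences between 0.87 and 0.89. All 47 were above the low-Alb arrays without overlap, beside 405 of all 19572 probe sets (2.07%). The list includes Alb, whose separation was fixed by the selection. Apoa2, a protein of high-density lipoprotein, was 11.06 and 10.98 in Vps39+/- males 3 and 2 and 12.68 and 11.72 in WT females 2 and 6, and its low-Alb median was 5.55 (5.1 to 6.01). Kng1, the kinin precursor kininogen, was 9.44 and 8.44 in the males and 10.84 and 9.35 in the females, and its low-Alb median was 3.11 (2.9 to 4.18). The fibrinogen chains Fga and Fgb were higher with Fgg, by 5.62 and 4.81. Across the list, WT female 2 was the highest of the 4 arrays for 46 of 47 genes.

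Intracellular hepatocyte genes were also present. Of 51 measured enzymes and carriers, 42 were called higher, beside 1.59% of all probe sets. Their median difference was 2.99, and 46 were highest in WT female 2 among the high-Alb arrays. Cps1, which starts the urea cycle, was 9.08 and 8.05 in Vps39+/- males 3 and 2 and 10.32 and 8.85 in WT females 2 and 6, and its low-Alb median was 3.74 (3.58 to 4.31). Fabp1, the liver fatty acid binding protein, was 8.84 and 9.01 in the males and 10.59 and 9.59 in the females, and its low-Alb median was 3.28 (2.7 to 3.59). Hence mRNA of enzymes that stay within the cell was seen as well as mRNA of secreted proteins. The P450 gene Cyp3a11 was uneven, at 9.45 and 7.04 in the males and 11.21 and 10.13 in the females, against a low-Alb median of 4.27 (3.80 to 4.64). Cyp7a1, the rate-limiting enzyme of bile acid synthesis, overlapped between the sets (high-Alb lowest 4.22, low-Alb highest 4.32).

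Low-abundance regulators and other liver cells were less clear. The counts below stand beside 312 of all 19572 probe sets (1.59%) that were called higher. Of 14 liver transcription factors, 1 was called higher, the bile acid receptor Nr1h4 (difference 1.12), and the list median was 0.55. The hepatocyte nuclear factor Hnf4a was 6.26 and 6.22 in Vps39+/- males 3 and 2 and 7.39 and 6.45 in WT females 2 and 6, above all low-Alb arrays (5.26 to 6.10) but with a difference of only 0.63. Among 14 genes of sinusoidal endothelium and Kupffer cells, 2 were called higher, the macrophage receptor Vsig4 (1.27) and the sinusoidal lectin Clec4g (1.13). Cd5l, secreted by Kupffer cells, was 4.79 and 4.09 in the males and 6.95 and 6.07 in the females, so that only the females and Vps39+/- male 3 lay above the low-Alb arrays (3.78 to 4.61). None of 6 bile duct genes was called, and their median difference was -0.12. Of 13 acute phase genes, 7 were called higher, led by Saa4 (4.57), Fgl1 (3.27), Crp (3.21) and Orm1 (2.86). Saa4 is the constitutive serum amyloid A, while the inducible Saa1 (0.22) and Saa2 (0.48) were not called and were above every low-Alb array in WT females 2 and 6 alone.

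**Figure D3:**
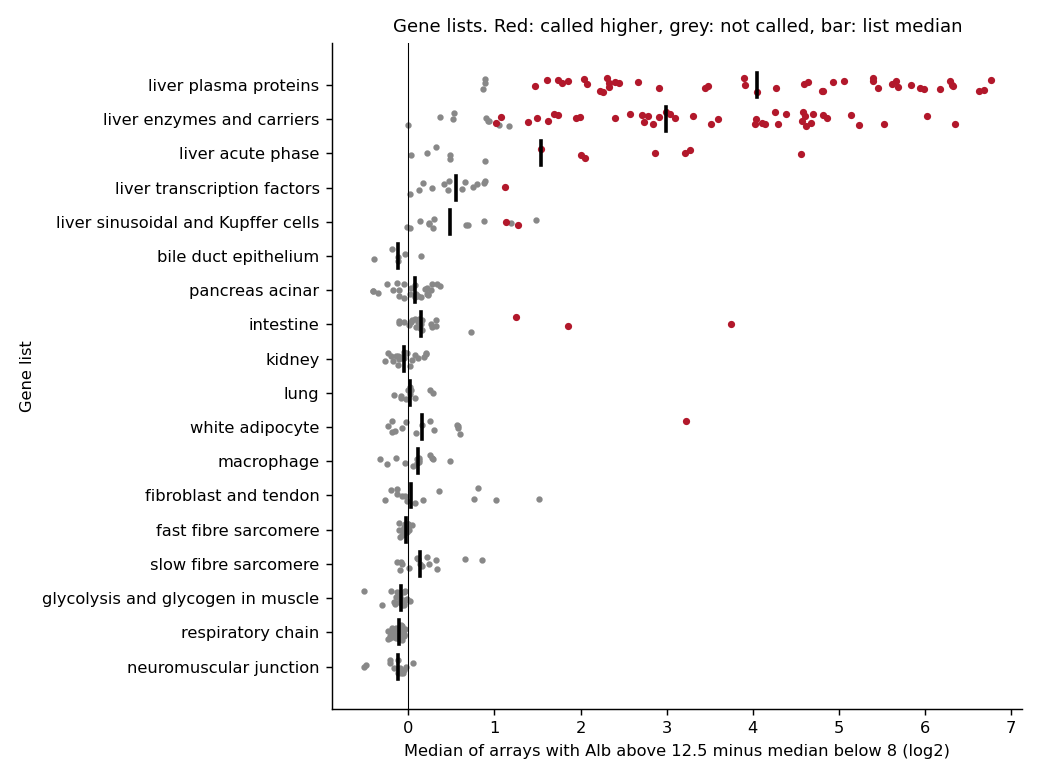
Difference of medians, high-Alb arrays minus low-Alb arrays (log2), for the genes of 18 lists, with genes called higher in red, other genes in grey and the list median as a bar. Plasma proteins (median 4.05) and liver enzymes (2.99) lie to the right, whereas the lists of muscle and of other organs are centred near 0.

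Some P450 genes of female liver were high in the high-Alb females and near the low-Alb level in the high-Alb males. Cyp3a41a, a P450 gene of female liver, was 3.46 and 4.32 in Vps39+/- males 3 and 2, at the edges of the low-Alb range (3.52 to 4.13), and 10.86 and 9.96 in WT females 2 and 6. Cyp2c69, likewise typical of female liver, was 3.50 and 4.00 in the males and 10.57 and 9.07 in the females, and Cyp2c40 was 3.79 and 2.98 in the males and 9.94 and 8.80 in the females. Mup20, a Mup gene of male liver that encodes the pheromone darcin, showed the opposite order, with 10.12 and 10.91 in the males and 9.11 and 7.62 in the females. Mup21, another gene of the male liver list, overlapped, at 7.91 and 9.95 in the males and 10.26 and 8.66 in the females. The Cyp2c and Cyp3a families hold near-identical genes, so their probe sets may share signal.

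Sex was not used to select the arrays, and the Vps39+/- males were compared with the WT females of the high-Alb set using limma. In this fit of 2 arrays against 2, 9 genes were higher in the females (0.046% of 19572) and 2 were higher in the males (0.0102%). The 2 were the Y-linked genes Eif2s3y (4.92, adjusted p = 0.0044) and Uty (3.55, adjusted p = 0.0076). Of the 9, Sult2a2, a sulfotransferase, had the smallest p (-3.59, adjusted p = 0.0076). It was followed by Cyp3a41b (-6.32, adjusted p = 0.0092), Cyp3a41a (-6.52, adjusted p = 0.0148) and Cyp2c40 (-5.98, adjusted p = 0.0327). Cyp3a16, Cyp2c69 and Cyp2a4 were also lower in the males, by 5.24, 6.07 and 2.81 on the log2 scale. The remaining genes, Adipoq (-3.25) and Retn (-2.46), are adipocyte hormones. Altogether 6 of 21 measured genes of the female liver list were lower in the males, 0 had a positive difference, and the list median was -2.81. The other liver lists leaned the same way without a gene passing, with 44 of 47 plasma protein genes below 0 (median -1.16), 47 of 51 enzymes and carriers (-1.16) and 13 of 13 acute phase genes (-1.45), and WT female 2 was the highest high-Alb array for 46, 46 and 13 of these genes. Of 19 genes of the male liver list, 0 passed, 14 had a positive difference and the median was 0.23. In the count of calls, much rested on single arrays, since 148 genes passed without WT female 6, 57 without Vps39+/- male 2, 12 without WT female 2 and 13 without Vps39+/- male 3. With an intensity trend and a robust prior, 55 genes passed, but Cyp3a41a, Cyp2c40 and Cyp2c69 did not. Because the males were Vps39+/- and the females WT, the difference is of sex and genotype at once.

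The sex difference of the high-Alb arrays was then set against that of the low-Alb arrays, a comparison chosen after the values above were seen. The difference between the sex effects passed for 108 genes (0.552%), of which 105 were lower in high-Alb males. Without WT female 6 the count was 413, and without WT female 2 it was 38. For Cyp3a41a, the sex effect differed by -6.54 ± 0.34 (SE, limma adjusted p = 8.91e-09), and for Cyp2c69 by -6.07 ± 0.39 (SE, limma adjusted p = 1.83e-07). Mup20 did not pass (1.63, adjusted p = 0.199). Cyp2c69 was between 2.66 and 3.31 in the low-Alb arrays, near the dim end, where a sex difference has little room to show. Its male minus female difference inside the high-Alb set alone was also -6.07, so this comparison adds little to that of 2 arrays against 2. None of the 312 probe sets passed for sex over all 24 arrays, where 661 genes did (3.38%). The 312 were chosen to be high in high-Alb arrays of both sexes, which makes a pass for sex unlikely. Their count is therefore a description. In the comparison of sex effects, 62 of the 312 passed, but the 312 were chosen on the same high-Alb arrays, so this count is a description.

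Among the 8 arrays between the thresholds, WT male 6 had an Alb value of 11.18, and Vps39+/- females 1, 3 and 6 had 11.22, 11.18 and 11.48. These 4 arrays, chosen after their values were seen, have close Alb values and pair sex and genotype in the other way than the high-Alb arrays. Cyp3a41a was 5.92, 6.63 and 5.81 in these Vps39+/- females and 3.65 in the WT male. Mup20 was 4.87, 5.11 and 4.77 in the Vps39+/- females and 9.57 in the WT male, and Mup3 was 6.45, 6.82 and 7.46 in the females and 10.15 in the male. In the high-Alb set, Mup3 overlapped between males (10.60 and 11.75) and females (11.86 and 10.83). In the remaining 4 arrays, whose Alb values were further apart, Cyp3a41a was 3.94 in Vps39+/- male 6, 4.71 in Vps39+/- female 5, and 7.49 and 3.9 in WT females 3 and 1. Mup20 was 6.45 in the male, 4.68 in Vps39+/- female 5, and 4.83 and 4.04 in WT females 3 and 1. These values are a description, with 1 male of each genotype.

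**Figure D4:**
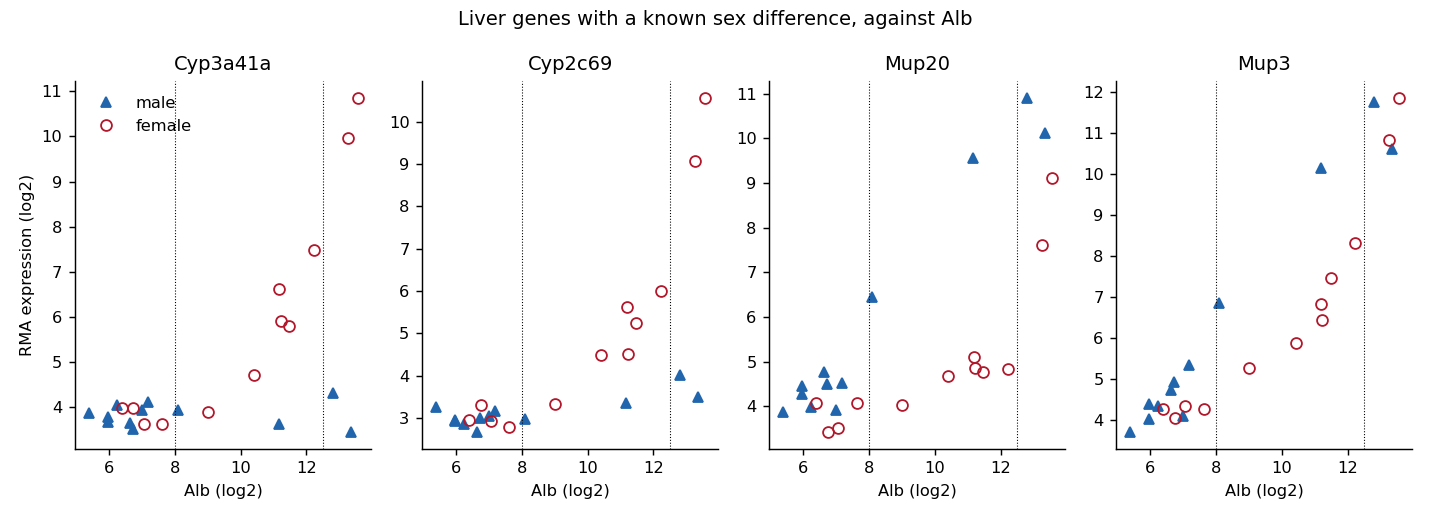
RMA expression (log2) of Cyp3a41a, Cyp2c69, Mup20 and Mup3 against Alb (log2) in 12 males (triangles) and 12 females (circles), with dotted lines at the Alb thresholds. Cyp3a41a is at or below 4.32 in all males and reaches 10.86 in females, while Mup20 in the high-Alb males (10.12 and 10.91) is above that in the high-Alb females (9.11 and 7.62).

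Transcripts typical of a second organ stood out in a single array. In Vps39+/- male 3, genes of the exocrine pancreas were high, which was noticed in the values and is given as a description. Amy2a5, pancreatic amylase, was 12.31 in this array, and the highest of the other 23 arrays reached 5.55. Clps, the lipase cofactor colipase, was 11.95 against at most 5.45 elsewhere, and Cpb1, a carboxypeptidase, was 10.01 against at most 3.27. Of 27 measured acinar genes, 26 were highest in this array, 23 of them by at least 2 log2 over every other array, with a median gap of 4.00. The exception was Bhlha15, a transcription factor of acinar cells, at 2.99. The other high-Alb arrays did not share the pattern, as Amy2a5 was 5.45 in Vps39+/- male 2 and 4.97 and 5.45 in WT females 2 and 6. The acinar list was therefore not called between the sets (0 of 27, beside 1.59% of all probe sets, median difference 0.08). The amylase and trypsin genes are families of close copies.

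Over all genes, 29 were at least 2 log2 above every other array in Vps39+/- male 3, and 23 of these were in the acinar list. The others included the amylase genes Amy2a4 (gap 6.715) and Amy2a2 (6.536), named after their values were seen, which the list does not hold. In WT female 2 the number of genes above every other array by this size was 21, none of them in the acinar list. In each of the other 22 arrays it was 0. None of the 312 probe sets stood out by this measure in Vps39+/- male 3. The pancreatic genes and the liver genes were thus high in the same array without being ordered alike across arrays.

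**Figure D5:**
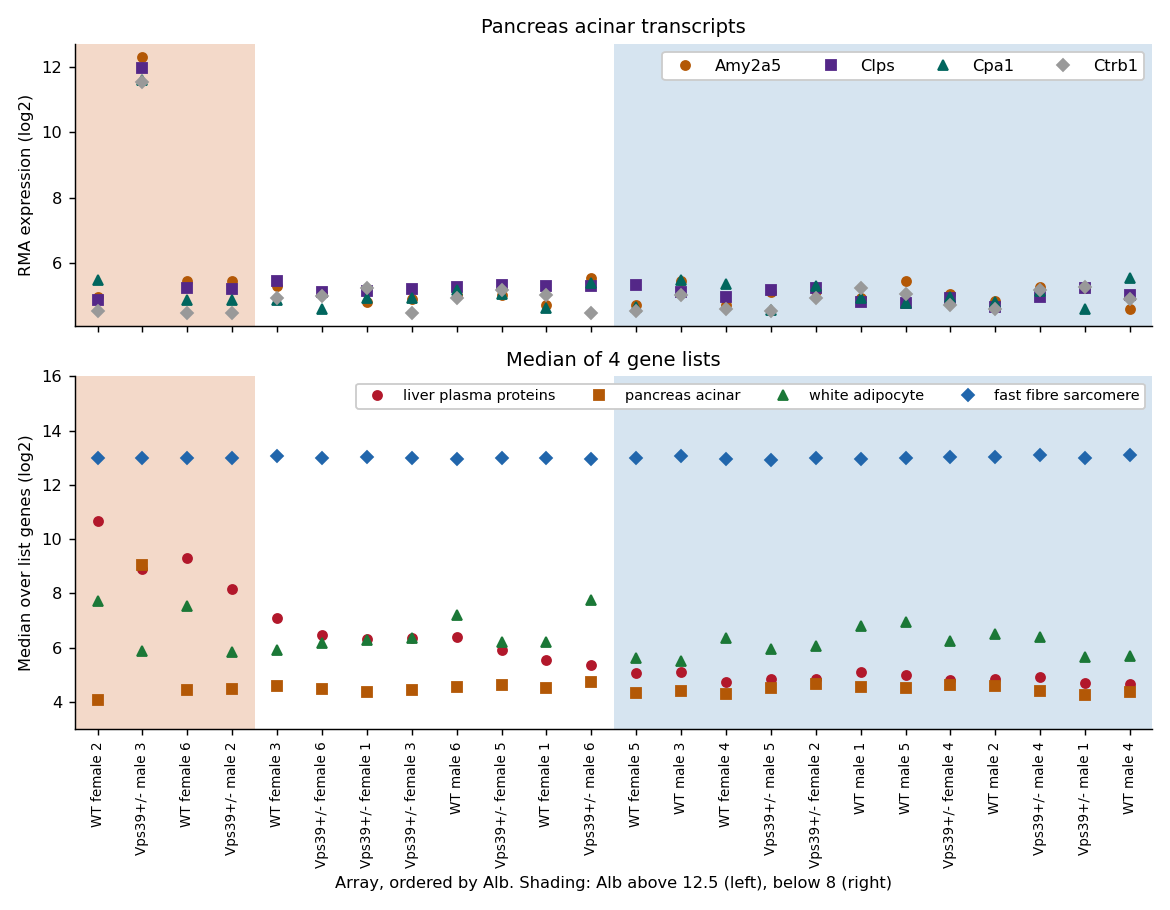
Upper panel, RMA expression (log2) of the acinar genes Amy2a5, Clps, Cpa1 and Ctrb1 in each of the 24 muscles, ordered by Alb, with the high-Alb arrays shaded on the left and the low-Alb arrays on the right. Lower panel, the median over genes (log2) of 4 lists in the same arrays, where the acinar list is 9.05 in Vps39+/- male 3 and at most 4.71 elsewhere, and the fast fibre list is level.

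Few genes of other organs and of blood cells were called in the high-Alb arrays, beside 312 of all 19572 probe sets (1.59%) called higher. At that share a short list is likely to hold no call, so an absence of calls in it says little. No gene was called in the lists of kidney (20 genes), lung (11), heart (14), stomach (10) or testis (9), or in those of B cells, T and NK cells, erythroid cells, neutrophils, macrophages and mast cells, and the medians of these lists were between -0.22 and 0.11. Of 22 intestinal genes, 3 were called, Apoa4 (3.75), Fabp2 (1.85) and Mttp (1.25), which take part in lipid transport and are also transcribed in liver. Of 8 islet genes, 1 was called, Slc2a2 (3.73), the glucose transporter of hepatocytes and beta cells, while Ins2 (-0.22) was not. Of 14 skin keratinocyte genes, 1 was called, Perp (1.03), a gene of cell contacts in epithelia. Of 15 white adipocyte genes, 1 was called, Pck1 (3.22), a gluconeogenic enzyme that liver also expresses. Adipoq, which is specific to adipocytes, was 5.14 and 5.38 in Vps39+/- males 3 and 2 and 8.18 and 8.83 in WT females 2 and 6, overlapping with the low-Alb arrays (4.95 to 7.55). Its highest value, 9.77, was in Vps39+/- male 6, whose Alb was 8.09. The adipocyte list median was 5.86 and 5.83 in the high-Alb males and 7.73 and 7.55 in the high-Alb females, so it moved with the sex difference of the high-Alb arrays, and its part in that difference was not tested.

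Muscle genes were not lower to a degree that met the call. Across 10 muscle lists with 177 measured genes, 0 were called in either direction, beside 312 higher (1.59%) and 0 lower (0%) of 19572 probe sets. None of the 177 lay below the low-Alb arrays without overlap, beside 52 of 19572 probe sets (0.266%) that did so with any size of difference. The median difference of the 177 genes was -0.08, and 172 were within 0.5 log2. Ckm, muscle creatine kinase, was 12.89 and 12.84 in Vps39+/- males 3 and 2 and 12.69 and 12.78 in WT females 2 and 6, against a low-Alb median of 12.85 (12.76 to 12.96). Pvalb, the calcium buffer of fast fibres, was 12.96 and 12.84 in the males and 12.83 and 12.88 in the females, against 12.90 (12.78 to 13.13).

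Small differences nevertheless leaned downwards. Of the 177 muscle genes, 147 had a difference below 0, as did 65.1% of all probe sets, and all 33 respiratory chain genes were below 0 (list median -0.11). List medians were between -0.12 for the neuromuscular junction and 0.14 for slow fibre sarcomere genes. After cyclic loess, which rescales the arrays by intensity, 102 of the 177 were below 0 and the fast fibre and thick filament lists turned positive (0.02 and 0.03). The largest differences in muscle lists were positive, and with the exception of Cpt1a (0.79), the carnitine palmitoyltransferase form of liver, they overlapped. Csrp3, a mechanosensor of the Z disc, was 7.30 and 8.82 in Vps39+/- males 3 and 2 and 8.85 and 8.63 in WT females 2 and 6, inside the low-Alb range (5.80 to 10.41). Among 14 genes of atrophy and growth arrest, 0 were called, beside 1.59% of all probe sets. Their largest differences were Ddit4, an inhibitor of growth signalling (-0.73), and the atrophy ligase Trim63 (-0.44). The 52 probe sets below all low-Alb arrays included Tmem143 (-0.45), Prrg2 (-0.43) and B4galt4 (-0.41), named after their values were seen, and none was in a muscle list. This count depended on the arrays and the scaling. It was 10 after cyclic loess and 148 after all arrays were given the same median. It was 85 without WT female 2, 165 without Vps39+/- male 3, 141 without WT female 6 and 218 without Vps39+/- male 2. Against all other arrays it was 12, and with Alb above 11 against below 7 it was 1. In females only, 2 high-Alb arrays were set against 4 low-Alb arrays. So few arrays overlap less often, and 3300 of 19572 probe sets lay below the low-Alb females without overlap at any size of difference. Of the 19572, 4 were called lower, the first being Mybph, a myosin binding protein gene (-1.44). It was 7.83 and 7.97 in the high-Alb females and between 8.43 and 9.68 in the low-Alb females. No probe set was called lower in males only.

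The 8 arrays between the thresholds, which entered neither set, were examined for a graded relation. Their Alb values placed them there, and the same values serve in the slope and correlations below. This fit was chosen after the arrays were seen to lie there. Of the 312 probe sets, 293 had a median in these arrays between those of the 2 sets. The 312 were chosen for medians that lie apart, which makes a median in between likely, so this count is a description only. A limma slope on Alb passed for 50 of 19571 genes (0.255%), all positive, and 49 of them were among the 312. Per 1 log2 of Alb, Fgg was higher by 1.07, Kng1 by 0.91 and Ttr by 0.85 (adjusted p at most 6.85e-05). In total 22 of 47 plasma protein genes and 13 of 51 enzymes passed. Without the 2 arrays farthest from the median Alb, Vps39+/- male 6 and WT female 1, 0 genes passed (997 at an unadjusted p under 0.05), and without WT female 3 the count was 28. Of the 312 probe sets, 280 (89.7%) had a positive slope, beside 50.1% of all genes.

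Correlations with Alb over these 8 arrays were r = 0.98 for Fgg, 0.98 for Ttr and 0.93 for Serpina1c, with Spearman's rho of 0.98, 0.83 and 0.83. The exact permutation p, adjusted over the 3 markers, was 0.000223, 0.000446 and 0.000446 for r and 0.00119, 0.0154 and 0.0154 for rho. Without Vps39+/- male 6 and WT female 1, r was 0.96, 0.94 and 0.83. WT female 3, with the highest Alb of the 8, had 231 of the 312 probe sets (74%) above every low-Alb array, and Vps39+/- male 6, with the lowest, had 64 (20.5%).

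Within the 12 low-Alb arrays, the relation was weaker. Alb spanned 2.25 log2 there, against 4.14 in the arrays between the thresholds. Fgg and Serpina1c lay near the dim end, so a relation had less room to show. The limma slope, with the 4 genotype and sex groups as means, passed for 0 of 19571 genes (0%), with 1029 at an unadjusted p under 0.05, and 165 of the 312 probe sets (52.9%) had a positive slope, beside 49.2% of all genes. The correlations of single markers leave out the genotype and sex groups, and they reuse the Alb values that placed these arrays in the set. Serpina1c correlated with Alb over the 12 arrays (r = 0.88, permutation p = 8e-05, adjusted 0.00024, rho = 0.83, permutation p = 0.00132, adjusted 0.00396). Its limma slope, with the groups as means, was 0.49 per 1 log2 of Alb and did not pass (adjusted p = 0.784 over 19571 genes). Without WT male 4 and WT female 5, r was 0.78. Ttr had r = 0.66 (permutation p = 0.0189, adjusted 0.0284) and rho = 0.62 (permutation p = 0.0373, adjusted 0.056), and r was 0.63 without these 2 arrays. Without WT male 4 alone, the correlation of Ttr no longer passed (r = 0.53, permutation p = 0.0943). Fgg did not pass (r = 0.47, permutation p = 0.125, adjusted 0.125, rho = 0.51, permutation p = 0.0931, adjusted 0.0931). Without WT male 4 and WT female 5, r of Fgg was 0.72, and without each single array in turn it was between 0.37 and 0.74.

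Alb varied widely within the groups of the study, and is given here without a test because its values selected the arrays. It was 9.22 ± 2.8 in Vps39+/- mice and 8.84 ± 2.93 in WT mice (SD, n = 12 each). It was 8.04 ± 2.79 in males and 10.01 ± 2.57 in females (SD, n = 12 each). The Vps39+/- minus WT difference of means was 1.64 in males alone and -0.89 in females alone. The spread within each group, with SDs above 2, thus exceeded all of these differences. No probe set passed the limma comparison of Vps39+/- with WT mice over all arrays (0%, 1436 at an unadjusted p under 0.05, 0 by the methods' t-test after adjustment), and 0 of the 312 did. Without the 4 high-Alb arrays the count was again 0, with 1373 at an unadjusted p under 0.05. The sample titles include a small number in front of a dot, which no label explains. It was 2 and 1 for Vps39+/- males 3 and 2 and 1 and 7 for WT females 2 and 6, so the high-Alb arrays did not share it.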

How the data were processed

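RNA of whole tibialis anterior muscle from 24 mice was hybridised to Clariom S mouse arrays. The authors deposited log2 expression values made with Affymetrix Expression Console 1.4.1.46 by RMA, which corrects background, equalises the distributions of the arrays and summarises probes per probe set. Equalising removes a shift shared by most genes, narrows differences at the dim end and leaves little room for differences among the brightest genes. For the genome build behind the array, nothing was stated (not given in the sources used here). Arrays have no read depth, and their number limits the precision.

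Of 28846 probe sets, 6640 controls and 2634 without a gene symbol in the platform annotation were left out, and 19572 were used. Groups came from the sample labels. Arrays were selected on Alb (above 12.5 against below 8), so that contrast and Alb between groups have no test. Other comparisons used limma 3.58.1 in R 4.3.3, two-sided, with Benjamini-Hochberg adjustment and a threshold of 0.05, and two-sided permutation tests (exact below 10 arrays, otherwise 100000 draws) in Python 3.11.15 with scipy 1.17.1. Members, 44 gene lists and the named genes were chosen with earlier results of these data known. Named were the markers, the 10 largest differences, up to 4 genes per list with the largest difference, its first 4 genes, and the 6 smallest p per direction of a fit, and other names are marked as chosen after their values were seen. The slope in the arrays between the thresholds, its correlations, the difference between sex effects and the pancreas values were added after the data were seen. A fit of sex in those arrays and a slope over all 24 arrays were tried and not carried forward.

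The fits were tested on simulated data. With the spread of each gene as observed, the fit of 2 arrays against 2 made more false calls than its nominal rate. The simulation that the fits had to pass was changed after this to spreads drawn from limma's fitted prior, and calls of that fit are to be read with this in mind. Alternatives were a common array median, cyclic loess, a minimum mean of 5, all probe sets, other Alb thresholds, each sex alone, covariates, an intensity trend with a robust prior, the methods' t-test (unpaired, equal variances), a block on the title number, and leaving out arrays.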

Additional observations from a re-analysis of the deposited data

Results flagged for a closer look

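Within groups of 6 mice, the gap of the highest or lowest array to its neighbour, as a share of the group's range, was compared with Dixon's critical value of 0.625. Chance flags about 1 in 20 independent groups, and 8 of 52 were flagged. The values are not independent, because the markers vary together and belong to the lists. Most of the flags were of the same array, WT male 6, so the 8 cannot be set against that rate. Alb also placed the arrays in the sets, so its flag is a description. WT male 6 stood above the other WT males for Alb (0.69), Fgg (0.695), Ttr (0.673) and Serpina1c (0.821), and for the list medians of plasma proteins (0.746) and liver enzymes and carriers (0.771). Its Alb value was 11.18, and the next WT male had 7.17. Vps39+/- male 3 stood above the other Vps39+/- males for the median of the pancreas acinar list (0.901), with 9.05 and a next value of 4.71. Vps39+/- male 6 stood above them for the median of the white adipocyte list (0.636), with 7.74 and a next value of 6.4.

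The male minus female difference was not the same in the high-Alb as in the low-Alb arrays for 5 genes of female liver with the smallest p, tested as an interaction with limma. The difference between the effects was -6.265 for Cyp3a41b (adjusted p = 8.91e-09), -6.542 for Cyp3a41a (adjusted p = 8.91e-09), -6.065 for Cyp2c69 (adjusted p = 1.83e-07), -3.763 for Sult2a2 (adjusted p = 2.99e-07) and -6.096 for Cyp2c40 (adjusted p = 6.68e-07). In the high-Alb arrays the males were Vps39+/- and the females WT, so sex and genotype cannot be told apart there. In the low-Alb arrays Cyp2c69 was between 2.66 and 3.31, near the dim end, where a sex difference has little room to show.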

How the results depend on the processing

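The count of 312 probe sets higher in the high-Alb arrays was 161 with only probe sets of mean 5 or more, 95 with Alb above 11 against below 7, 541 in females only and 176 with a size of at least 2 log2, and it was between 279 and 370 without each high-Alb array in turn. The count of lower probe sets was 4 in females only (Mybph, Spice1, Cish and Dusp18) and 52 without a size (10 after cyclic loess, 148 with a common array median, 12 against all other arrays, 1 with Alb above 11 against below 7, and between 85 and 218 without each high-Alb array in turn). In females only, the count without a size was 3300 of 19572. The list median of plasma proteins was 2.26 with Alb above 11 against below 7, where that of enzymes and carriers was 1.37 and that of male liver genes 0.267. In females only, enzymes and carriers had 4.16 and transcription factors 1.31. The slope count in the arrays between the thresholds was 0 without the 2 farthest arrays, and between 28 and 57 without each array in turn. The slope count of the low-Alb arrays (0) was 124 over all arrays outside the high-Alb set. The 11 calls for sex in the high-Alb arrays were 4 with only probe sets of mean 5 or more and 55 with an intensity trend and a robust prior, and between 12 and 148 without each array in turn. Under that trend Cyp3a41a (adjusted p = 0.109), Cyp2c40 (0.146) and Cyp2c69 (0.292) no longer passed. The 108 calls for the difference between sex effects were 29 with only probe sets of mean 5 or more, and between 38 and 413 without each high-Alb array. The cause was not tested, except that fewer probe sets enter with a minimum mean. The genotype comparison had 0 calls, and 4 with the title number as a block. Some list medians near 0 changed sign under some settings, for example those of fast fibre (-0.03) and thick filament genes (-0.03) to 0.02 and 0.03 after cyclic loess, that of slow fibre genes (0.14) to -0.04 in males only, and that of circadian clock genes (-0.14) to 0.07 in females only. No paired analysis was possible because replicate numbers only follow the order of deposition, and the title number, used as a block above, is not explained by any label and is not a pairing. The dim level of the liver genes in the low-Alb arrays limits how large a difference can be measured.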
